A study of Mus musculus with 6 samples.

Results

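The subject is the gene set of G2 and mitosis, the last stages of the cell cycle, in cultured mouse astrocytes that received a control or a Cre lentivirus. From a list of 42 genes, the members were the probes of the authors' value table whose platform symbol was on the list and that had a value on at least 3 of the 6 arrays. This gave 40 probes of 39 genes, out of 23473 probes and 19321 named genes on the array. Ccnb1, Foxm1 and Kif2c were not analysed here, and Prc1, which crosslinks the microtubules of the central spindle, was above background on 2 of the 6 arrays only, with 1 or 2 units in the authors' table. The other 38 genes lay above background on all 6 arrays and were tested. The brighter of the 2 Smc2 probes stood for that gene, and both read close to 0 (-0.02 and -0.07 log2 units, Cre minus control).

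Both groups were astrocytes from the cortex of newborn (P0) C57BL/6J mice with the Chd7flox/flox genotype, kept in 10% FBS with FGF2, EGF and B-27 supplement and taken 3 days after infection. The control group (3 arrays) received a control lentivirus with the floxed Chd7 alleles intact, and the other group (3 arrays), titled Chd7 KD, received a Cre lentivirus. The promoter that drives Cre, the share of cells infected and whether the 3 replicates were separate cultures or animals are not stated in the labels. The p-values therefore reflect the spread among these arrays only, and that spread may be technical. A response to Cre itself and a response to the loss of Chd7 cannot be told apart in this design.

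Entry into mitosis is driven by the kinase CDK1 bound to cyclins A and B, which CDC25 phosphatases activate and which the kinases PLK1 and Aurora A reinforce. The spindle checkpoint then holds the anaphase-promoting complex until every chromosome is attached, after which CDC20 and UBE2C direct the destruction of cyclin B and securin. Most of these genes are transcribed only in cycling cells and peak together, and their promoters typically carry CCAAT boxes, bound by NF-Y, and the cell cycle genes homology region (CHR), through which the MuvB complex acts. In serum with FGF2 and EGF, mitogens for neural progenitors and astrocytes, cultured newborn astrocytes divide. In RNA from whole cultures, fewer dividing cells and less RNA per dividing cell cannot be told apart.

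The promoters show what these genes share in sequence. RefSeq windows of 300 bases (GRCm38.p6), from 250 bases before the annotated start, matched 31 of the 38 genes in 32 windows. The letters of the CCAAT box (CCAAT, searched on both strands, overlapping matches included) occurred in 27 of the 32 windows (84.4%), against 37.4% of all 32851 windows. The CHR letters TTTGAA, searched the same way, occurred in 23 windows (71.9%), against 17.9% of all windows, and the variant TTCGAA, the same on both strands, in 4 (12.5%), against 1.56%. Both CCAAT and TTTGAA occurred in 22 windows (68.8%), against 6.95% of all. In 20 of the 22 genes with TTTGAA, a match began within 50 bases of the start. That position was not counted in all windows, so how usual it is was not tested. Windows of S phase genes held CCAAT in 55% and TTTGAA in 17.5%, and windows of the other mitosis genes defined further on held them in 61% and 50.8%. Birc5, Mad2l1, Nusap1 and Pttg1 had neither CCAAT nor TTTGAA in this window. Shown here are the last 120 bases before the start of 4 genes with TTTGAA upstream of it and of the paralogues Cks1b and Cks2, which differ in it. Lower case is the flanking sequence and capitals mark each match on either strand, so that a CCAAT box on the opposite strand reads ATTGG and a CHR on the opposite strand reads TTCAAA.
Cdk1, chr10:69352913-69353032, minus strand: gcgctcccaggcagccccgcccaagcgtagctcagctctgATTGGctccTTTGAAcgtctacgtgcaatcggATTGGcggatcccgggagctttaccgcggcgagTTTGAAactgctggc
Cdc20, chr4:118437344-118437463, minus strand: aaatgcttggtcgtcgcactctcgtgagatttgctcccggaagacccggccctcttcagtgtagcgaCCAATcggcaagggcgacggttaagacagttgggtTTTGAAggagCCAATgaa
Ube2c, chr2:164769809-164769928, plus strand: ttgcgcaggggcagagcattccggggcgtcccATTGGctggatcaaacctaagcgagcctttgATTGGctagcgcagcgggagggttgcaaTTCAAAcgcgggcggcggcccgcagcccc
Top2a, chr11:99024190-99024309, minus strand: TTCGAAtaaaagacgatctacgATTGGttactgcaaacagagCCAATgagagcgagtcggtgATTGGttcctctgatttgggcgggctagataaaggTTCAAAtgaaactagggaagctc
Cks1b, chr3:89418292-89418411, minus strand: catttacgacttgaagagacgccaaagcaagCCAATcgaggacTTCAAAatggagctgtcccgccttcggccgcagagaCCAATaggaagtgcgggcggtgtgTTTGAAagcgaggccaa
Cks2, chr13:51645112-51645231, plus strand: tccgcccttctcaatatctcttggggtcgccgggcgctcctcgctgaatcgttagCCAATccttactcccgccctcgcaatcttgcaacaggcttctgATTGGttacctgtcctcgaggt

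**Figure D1:**
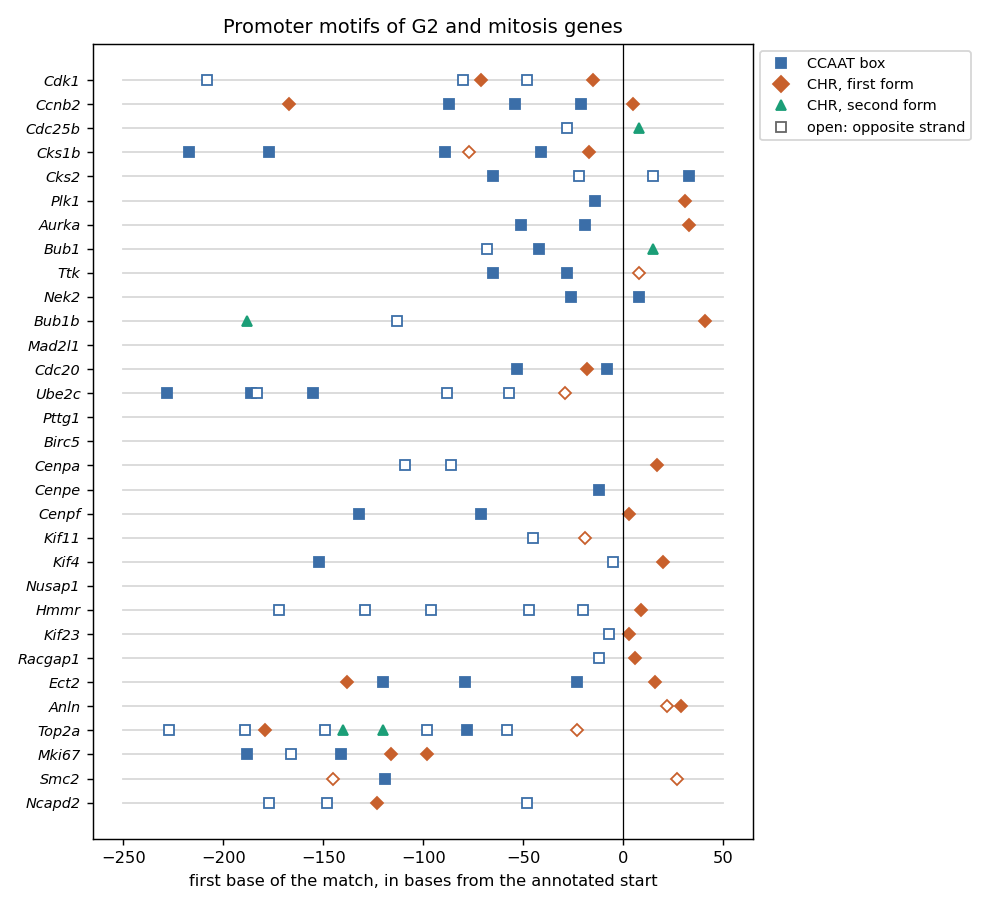
Each line is the promoter window of 1 of the 31 G2 and mitosis genes (for Ect2, 1 of its 2 windows), with the distance from the annotated start in bases on the horizontal axis; squares mark the CCAAT box, diamonds and triangles the 2 forms of the CHR, and open symbols the opposite strand. In 20 of the 22 genes with the first form, a match begins within 50 bases of the start, a position not counted in other promoters.

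RNA was amplified, labelled with Cy5 and hybridised to 1-colour arrays of 23473 probes, of which 82.8 to 90.7% lay above background on an array. Levels are given as log2 intensity after background correction and quantile normalisation, a scale that compresses differences of dim probes. The brighter Chd7 probe read 6.92, 7.49 and 6.95 in control and 6.00, 5.97 and 6.01 in Cre cultures, a difference of -1.13 (SE 0.16, limma adjusted p = 0.405 over all probes), which ran from -0.52 with the scanner's local background column to -2.71 with plain subtraction of the blank level. The dimmer Chd7 probe stood at -0.11 (SE 0.06, limma adjusted p = 0.998), with overlapping groups. Which part of the gene each probe covers, and so whether it lies in the deleted part, is not known here. All 12 astrocyte markers were above background on all 6 arrays. The summed level of the 14 microglia markers in the fit was 432 to 504 units in control and 315 to 418 in Cre cultures in the authors' table. That sum includes Cd68, which was higher in Cre cultures (156, 164 and 193 units, against 121, 134 and 132 in control), while 10 of the 14 differences lay below 0. The summed level of the 12 astrocyte markers was 5074 to 8901 units in control and 6739 to 8549 in Cre cultures.

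The first comparison asked whether mitotic transcripts differ between Cre and control cultures. None of the 38 genes passed the limma adjusted p of 0.05, as none of the 20540 probes tested did (0%). At an unadjusted p under 0.05 there was 1 gene of 38 (2.63%), Incenp, against 1153 probes (5.61%) of all. The groups did not overlap for that gene alone, against 10.5% of all probes. The differences lay between -0.23 (Cks2) and 0.24 (Incenp and Smc4), with a median of 0.03 log2 units against -0.001 over all probes, and 25 of the 38 lay above 0, against 49.6% of all probes. On this compressed scale every 95% interval stayed within 2-fold in either direction, the outermost bounds being -0.70 (Ccna2) and 0.89 (Nusap1), and 13 of the 38 reached a 1.5-fold difference. With the replicate number as a block, 3 intervals reached it (Tpx2, Smc4 and Ncapd2), with outermost bounds of -0.69 (Ncapd2) and 0.69 (Smc4). Under other background corrections the differences were larger for some genes and smaller for others. Their median was 0.03 with plain subtraction of the blank level and 0.08 with the local background column. Incenp stood at 0.90 with plain subtraction. With the local background column Cdk1 stood at -1.03, Smc2 at -0.73 and Ccnb2 at -0.64, but Incenp at 0.11 and Cks2 at -0.17.

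The count above 0 was set by the arrays used and by the scaling. Without control replicate 1, 7 genes lay above 0 and the median was -0.10, and without Cre replicate 3 it was 10 genes and -0.06. Without control replicate 2 the median was 0.17, and without Cre replicate 1 it was 0.16. With median scaling 16 genes lay above 0, and in the authors' table, on the log2(value + 10) scale, 8 did; there the median of all probes was itself -0.10 and that of the members -0.11. The set as a whole thus leaned either way, depending on the arrays and the scaling. Markers of the cultured cells and of others were counted in the same comparison. Of the 12 astrocyte markers 11 lay above 0 (median 0.24), with 5 at an unadjusted p under 0.05. Of the 14 microglia markers 10 lay below 0 (median -0.14), with 5 lower and 1 higher at that p. In either list 0 passed the adjusted threshold, and no test was made of a list as a whole. Of the 8 fibroblast and mural markers 6 lay below 0 (median -0.14), and the medians of the neuron, oligodendrocyte lineage and endothelial markers were -0.03, -0.02 and 0.01. Of all probes, 2.77% were higher and 2.85% lower at that unadjusted p, and of the members 1 was higher and 0 lower. The part of these cells in the members' values was not tested.

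**Figure D2:**
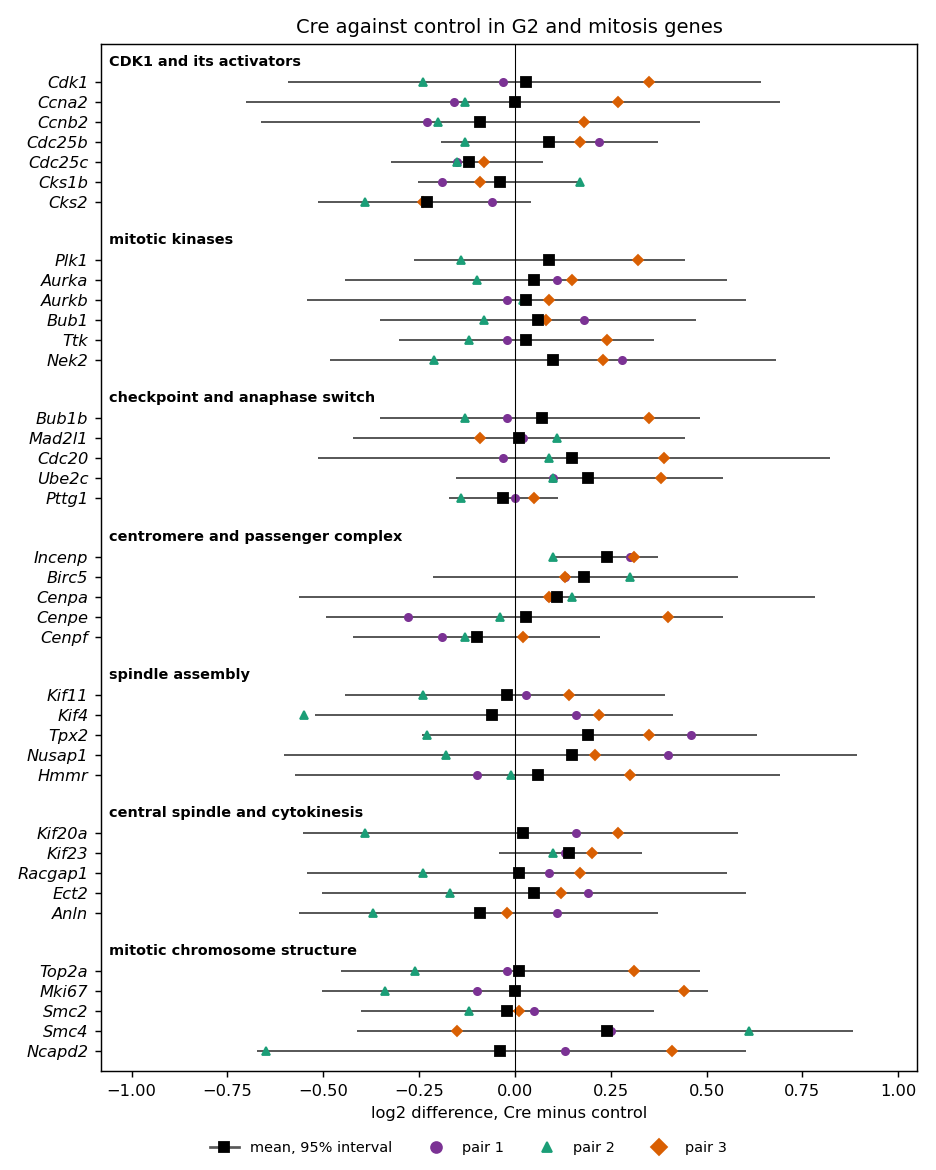
Log2 difference, Cre minus control, for the 38 tested genes in 7 groups by role. Black squares are the means with their 95% intervals from limma, coloured symbols the difference within each same-numbered pair of arrays; all intervals but that of Incenp include 0.

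CDK1 and its activators came first in the order of the cycle. Cdk1, the kinase that starts mitosis, read 10.00, 10.70 and 10.34 in control replicates 1, 2 and 3 and 9.97, 10.45 and 10.69 in Cre replicates 1, 2 and 3. The ranges of the groups nearly coincided, with the lowest value of each group in replicate 1, and the difference was 0.03 (SE 0.25, limma adjusted p = 0.999). Its partners Ccna2 and Ccnb2, cyclins of S to M phase and of mitosis, stood at 0.00 (SE 0.28) and -0.09 (SE 0.23). Cdc25b and Cdc25c encode phosphatases that remove inhibitory phosphates from CDK1. Cdc25c read 6.78, 6.98 and 6.81 in control and 6.63, 6.84 and 6.73 in Cre cultures, lower in each same-numbered pair by 0.08 to 0.15, and stood at -0.12 (SE 0.08). Cdc25b stood at 0.09 (SE 0.11).

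Cks1b and Cks2 encode small paralogous subunits that dock CDK complexes onto phosphorylated substrates. Cks2 read 9.85, 10.22 and 10.19 in control and 9.79, 9.82 and 9.95 in Cre cultures. It was the lowest of the 38 differences, at -0.23 (SE 0.11, limma adjusted p = 0.938), and Cre was below control in each pair, at -0.06, -0.39 and -0.24. Cks1b read 10.09, 9.98 and 10.18 in control and 9.90, 10.15 and 10.08 in Cre cultures, with a difference of -0.04 (SE 0.08) and pairs of both signs. Whether the paralogues differ from each other was not tested.

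The 6 mitotic kinases stood between 0.03 and 0.10. Plk1, which drives mitotic entry and centrosome maturation, read 6.76, 7.17 and 6.91 in control and 6.85, 7.03 and 7.23 in Cre cultures (0.09, SE 0.14). Aurkb, the kinase of the chromosomal passenger complex, read 8.23, 8.33 and 8.79 in control and 8.20, 8.34 and 8.88 in Cre cultures (0.03, SE 0.23). For Aurkb, replicate 3 was high in both groups, and same-numbered arrays lay within 0.09 of each other. The other members were the spindle pole kinase Aurka (0.05), the checkpoint kinases Bub1 (0.06) and Ttk (0.03) and the centrosome kinase Nek2 (0.10). All 6 lay above 0 in the main fit. In the authors' table on the log2(value + 10) scale 5 turned below 0 (all but Plk1, at -0.14 to -0.001), but there the median of all probes was itself -0.10. Aurka and Aurkb turned below 0 with median scaling (-0.004 and -0.024), and Ttk and Nek2 with the local background column (-0.10 and -0.072).

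The checkpoint and anaphase genes stood between -0.03 and 0.19. Cdc20, the activator of the anaphase-promoting complex, read 9.22, 9.90 and 9.47 in control and 9.20, 9.99 and 9.86 in Cre cultures (0.15, SE 0.27). Its promoter, printed above, carries TTTGAA 18 bases before the start between a pair of CCAAT boxes. Ube2c, the ubiquitin-conjugating enzyme of that complex, read 9.30, 9.59 and 9.49 in control and 9.40, 9.69 and 9.87 in Cre cultures. Cre was above control in each Ube2c pair (0.10, 0.10 and 0.38), with a difference of 0.19 (SE 0.14, limma adjusted p = 0.999). The checkpoint genes Bub1b and Mad2l1, whose products inhibit CDC20, stood at 0.07 and 0.01, and Pttg1, which encodes securin, at -0.03. The Pttg1 probe was dim, at 6, 10 and 8 units in control and 6, 5 and 9 in Cre cultures in the authors' table, whose median is 25. In that table its difference was -0.11 with a pseudocount of 10 and -0.24 with a pseudocount of 1.

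Centromere and passenger complex genes held the smallest p-value of the set. Incenp, the scaffold of the passenger complex, read 5.89, 5.93 and 5.84 in control and 6.18, 6.04 and 6.14 in Cre cultures, so that the groups did not overlap. The difference was 0.24 (SE 0.05, 95% interval 0.10 to 0.37, limma adjusted p = 0.591), and it did not pass. The value depended on the background correction and the scale: it was 0.11 with the local background column, 0.90 with plain subtraction, and 0.39 and 0.76 in the authors' table with a pseudocount of 10 and 1. The Incenp probe was dim, at 6, 7 and 5 units in control and 13, 8 and 12 in Cre cultures in the authors' table, whose median is 25. Birc5, which encodes the passenger protein survivin, read 8.38, 8.69 and 8.76 in control and 8.51, 8.99 and 8.88 in Cre cultures (0.18, SE 0.16). Cenpf, a kinetochore protein of G2 cells, read 7.62, 7.91 and 7.81 in control and 7.44, 7.79 and 7.82 in Cre cultures (-0.10, SE 0.13). The centromeric histone gene Cenpa stood at 0.11 (SE 0.27) and the kinetochore motor gene Cenpe at 0.03 (SE 0.21). Incenp was the only member whose replicate 1 arrays were not the lowest on average.

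Spindle assembly genes stood between -0.06 and 0.19. Nusap1, which bundles microtubules near chromosomes, read 7.93, 9.03 and 8.41 in control and 8.33, 8.85 and 8.63 in Cre cultures (0.15, SE 0.30). Of the 38 genes it varied most between replicate numbers, with means of the same-numbered arrays spanning 0.81 log2 units. Tpx2, an activator of Aurora A, stood at 0.19 (SE 0.17), the hyaluronan receptor and spindle gene Hmmr at 0.06, the spindle motor Kif11 at -0.02 and the chromokinesin Kif4 at -0.06. Among genes of the central spindle and cytokinesis, Kif23, a motor of the centralspindlin complex, read 6.63, 6.84 and 6.70 in control and 6.77, 6.94 and 6.91 in Cre cultures, above control in each pair, by 0.10 to 0.20 (0.14, SE 0.08, limma adjusted p = 0.981). Anln, the gene of the contractile ring protein anillin, read 7.69, 8.40 and 7.96 in control and 7.80, 8.03 and 7.94 in Cre cultures (-0.09, SE 0.19). Racgap1, the other component of centralspindlin, Ect2, an exchange factor needed for the cleavage furrow, and the motor Kif20a stood at 0.01, 0.05 and 0.02.

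Genes of chromosome structure included the usual proliferation markers. Mki67, whose product coats mitotic chromosomes, read 6.95, 7.46 and 6.99 in control and 6.84, 7.12 and 7.43 in Cre cultures, a difference of 0.00 (SE 0.20, 95% interval -0.50 to 0.50). Top2a, the topoisomerase that untangles sister chromatids, read 8.50, 9.04 and 8.40 in control and 8.48, 8.79 and 8.72 in Cre cultures, a difference of 0.01 (SE 0.19). For both genes Cre was below control in pair 2 and above it in pair 3. The condensin genes Smc4, Smc2 and Ncapd2 stood at 0.24 (SE 0.26), -0.02 (SE 0.15) and -0.04 (SE 0.26).

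**Figure D3:**
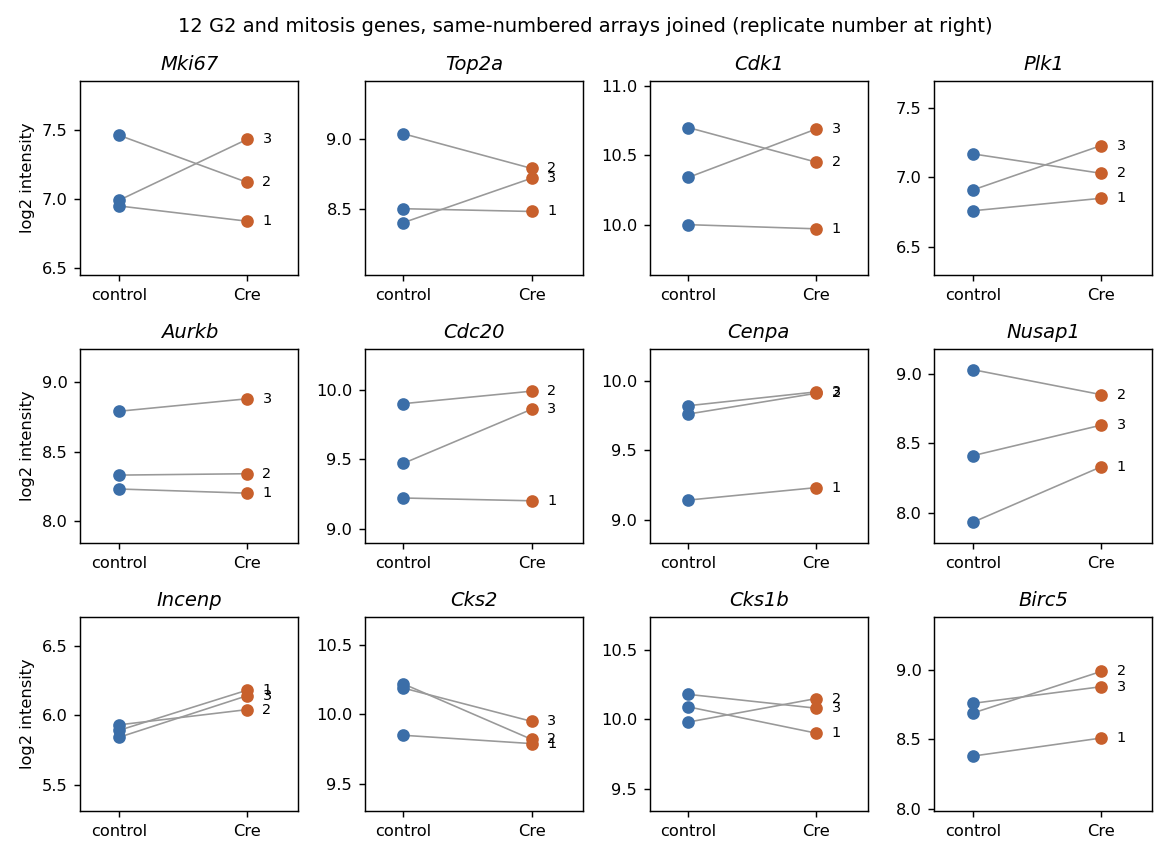
Log2 intensity of 12 genes in the 3 control and 3 Cre arrays, each panel spanning 1.4 log2 units, with same-numbered arrays joined. For Aurkb and Cenpa the joined arrays lie within 0.15 of each other, while the replicate numbers span 0.62 and 0.69; Incenp alone has groups that do not overlap.

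The second comparison asked how far the set differed between same-numbered pairs of arrays, since the labels give both groups the numbers 1 to 3. Replicate 1 was low in both groups. Its mean over the control and Cre array was the lowest of the 3 numbers for 37 of the 38 genes (97.4%), against 31.1% of all probes, and both replicate 1 arrays lay below the other 4 arrays for 25 genes (65.8%), against 8.66% of all probes. The median of the members, each centred on its own mean over the 6 arrays, was -0.26, 0.23 and 0.00 in control replicates 1, 2 and 3 and -0.20, 0.09 and 0.21 in Cre replicates 1, 2 and 3. Replicate 2 had the highest mean for 25 genes (65.8%, against 38.2% of all probes) and replicate 3 for 12 (31.6%, against 33.2%). The means spanned a median of 0.42 log2 units over the members and 0.12 over all probes.

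Summed over the 38 genes, the authors' table gave 5376, 9239 and 7847 units in control and 5608, 6627 and 7974 in Cre cultures, again with replicate 1 lowest in each group.

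By limma's F test for the replicate number, in a fit that also holds the virus, 21 of the 38 genes (55.3%) reached an unadjusted p under 0.05, against 14.1% of all probes, and 0 members and 0 of all probes passed the adjusted threshold. The smallest p-values were those of Cenpa (adjusted p = 0.105) and Aurkb (adjusted p = 0.120). Cenpa read 9.14 and 9.23 in the replicate 1 arrays (control and Cre) and 9.76 to 9.92 in the other 4. With a variance trend and robust moderation, 10 members passed the adjusted F test (26.3%), against 5.81% of all probes: Ccna2, Ccnb2, Aurkb, Nek2, Cdc20, Cenpa, Nusap1, Hmmr, Racgap1 and Ect2. Between replicates 2 and 3 alone, 2 of the 38 genes reached an unadjusted p under 0.05, against 10.2% of all probes. Replicate 1 was lowest for 37 genes also with plain subtraction of the blank level, with median scaling and in the authors' table, but not with the scanner's local background column, where replicate 1 was lowest for 12 genes (31.3% of all probes) and 1 gene (2.63%, against 2.82% of all probes) reached an unadjusted p under 0.05. With that column the members did not stand apart from all probes in either count. The column is high around probe spots: its array means ran from 179 to 322 units, while the median probe spot of an array ran from 88.8 to 106 units. What its subtraction adds to the spread was not tested. Among the 31 genes with a promoter window, the 22 with TTTGAA and the 9 without it both had a median span of 0.42. Those without it include Cdc25b and Bub1, which held the variant TTCGAA.

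**Figure D4:**
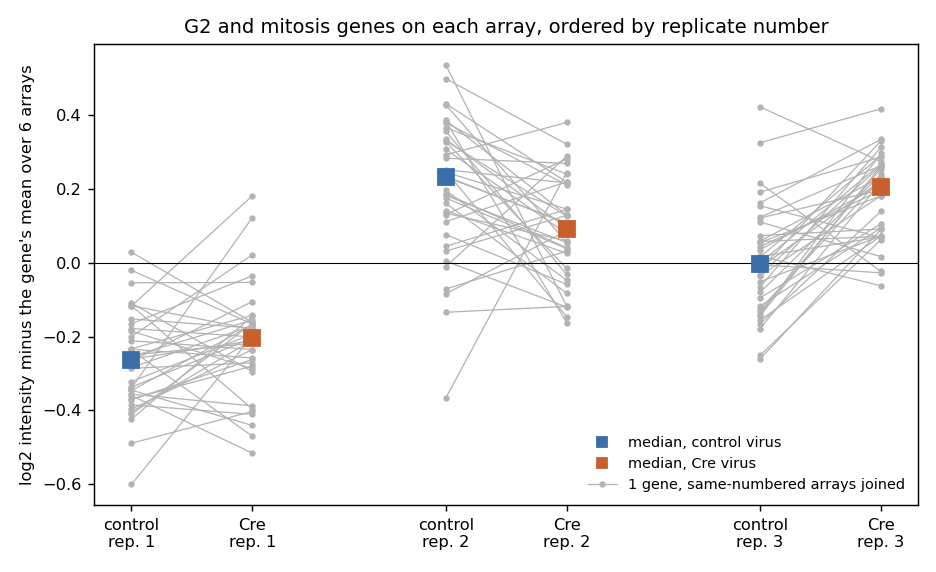
Level of each of the 38 genes on each array (grey points, log2 intensity minus the gene's own mean over the 6 arrays), with the median of the set as squares and the same-numbered arrays joined. The medians of both replicate 1 arrays, -0.26 and -0.20, lie below those of the other 4.

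Once replicate number entered the fit as a block, the SE of the virus difference had a median of 0.09 over the members, in place of 0.19, and 6 of the 38 genes (15.8%) reached an unadjusted p under 0.05, against 9.34% of all probes. These were Incenp, Kif23, Birc5, Cdc25c, Cks2 and Cenpa, with limma adjusted p between 0.433 and 0.518, so that 0 passed. Of these, Incenp, Kif23, Birc5 and Cenpa were above control in each pair and Cdc25c and Cks2 below it. In all, 5 members were above control in each of the 3 pairs (13.2%, against 14.6% of all probes) and 2 below (5.26%, against 15.5%). The pairs did not lean alike. The median difference of the members was 0.07 in pair 1, -0.13 in pair 2 and 0.19 in pair 3, with 23, 10 and 32 of the 38 genes above 0, against 47%, 52% and 49.7% of all probes, and 25 genes (65.8%, against 23.2% of all probes) lay below control in pair 2 and above it in pair 3.

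Other genes of the cell cycle were taken from lists that do not overlap the members. Of all probes, 49.6% lay above 0 and 5.61% reached an unadjusted p under 0.05. Of 65 other mitosis genes in the fit (kinetochore, spindle and cytokinesis genes), 43 lay above 0 with a median of 0.03; 3 reached an unadjusted p under 0.05, all higher in Cre cultures, and 0 passed. Among these were Ckap2, a spindle protein gene (0.39, SE 0.10), and Fzr1, the second activator of the anaphase-promoting complex (0.17, SE 0.06). Of 39 S phase genes, 20 lay above 0 with a median of 0.01, and 2 reached an unadjusted p under 0.05: the clamp loader gene Rfc3 (-0.12, SE 0.04) and the chromatin assembly gene Chaf1a (0.20, SE 0.08). Of 28 genes of G1 cyclins and cell cycle brakes, 4 did, of which Ccnd3, a D-type cyclin (0.34, SE 0.09), and Lin9, a MuvB subunit (0.28, SE 0.09), were higher and Cdk4 (-0.32, SE 0.07) and E2f5 (-0.20, SE 0.05) lower in Cre cultures, with limma adjusted p between 0.622 and 0.766.

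By replicate number, 28 of the 65 other mitosis genes (43.1%) and 16 of the 39 S phase genes (41%) reached an unadjusted p under 0.05 in the F test, and 7 of the 28 G1 genes (25%) did, against 14.1% of all probes. Replicate 1 was lowest for 49 of the 65 other mitosis genes, 33 of the 39 S phase genes and 9 of the 28 G1 genes. Of all probes, 31.1% had replicate 1 lowest, and the G1 count lay close to that share. Among the cell type lists, the fibroblast and mural markers moved most with the replicate number, with 0 genes past the adjusted threshold in any list. Of the 8 fibroblast and mural markers, 7 reached an unadjusted p under 0.05, of which 6 had replicate 2 lowest and Pdgfrb, the receptor gene of mural cells, replicate 3; the list had a median centred level of 0.48, -0.53 and 0.15 in control and 0.20, -0.54 and 0.16 in Cre cultures. The collagen gene Col3a1 read 9.34, 6.67 and 8.27 in control and 8.72, 6.39 and 7.92 in Cre cultures. Summed over the 8 markers, the authors' table gave 6279 to 10484 units in control and 5728 to 9110 in Cre cultures. Replicate 1 was highest in each group, and the lowest sum was in replicate 3 of control and replicate 2 of Cre cultures. Most of each sum was Acta2, the marker that did not reach that p, at 9409, 8635 and 5684 units in control and 8336, 5611 and 5806 in Cre cultures. The order of the sums is thus mainly that of Acta2. None of the 8 was below background on any array. Of the 12 astrocyte markers 4 reached that p (33.3%), and of the 14 microglia markers 1 (7.14%). Of the 7 oligodendrocyte lineage markers 1 did (14.3%), of the 8 neuron markers 1 (12.5%) and of the 3 endothelial markers 0, against 14.1% of all probes. The part of these cells in the members' levels was not tested.

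**Figure D5:**
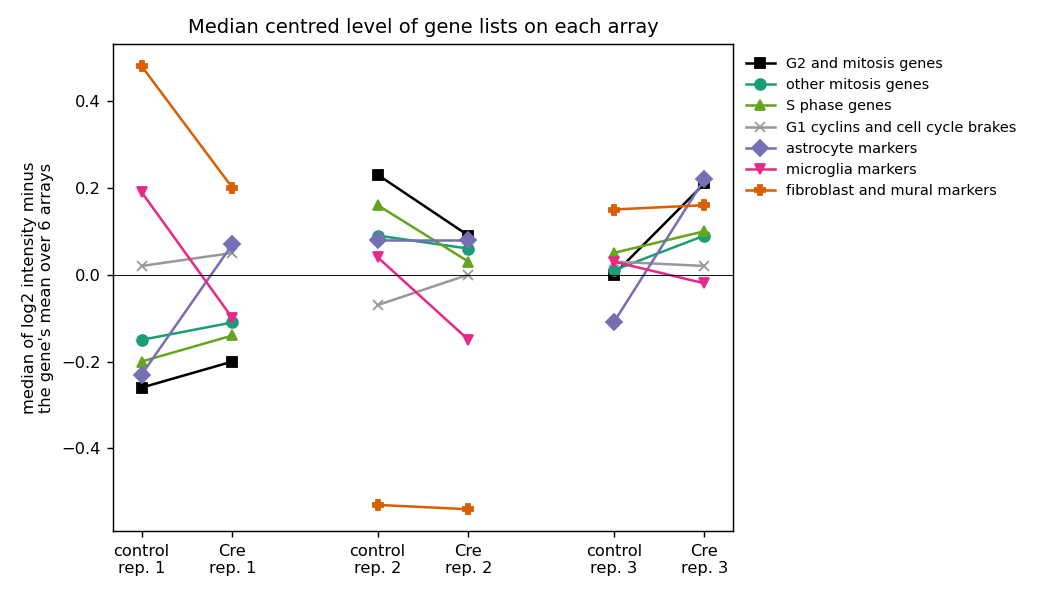
Median of the centred log2 intensity of 7 gene lists on each array, with same-numbered arrays joined. G2 and mitosis, other mitosis and S phase genes are lowest in both replicate 1 arrays, while fibroblast and mural markers are lowest in both replicate 2 arrays (-0.53 and -0.54).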

How the data were processed

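The members and lists were chosen with earlier results of these data known. The scanner files, as deposited, hold a spot median and a local background intensity per spot, not subtracted, per the file headers. The authors' deposited table holds processed linear intensity with a median of 25 per array and 1609 to 3178 empty cells; how it was made, and any genome build, are not given in the sources used here, so coordinates are those of RefSeq's promoter table.

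Intensities were corrected by normexp against 2736 blank spots (limma 3.58.1 nec, offset 50, R 4.3.3), because the scanner's local background was higher around probe spots (array means 179 to 322 units) than around blanks (57.5 to 63.0). Log2 values were quantile normalised between arrays. Spots marked by the scanner (0 to 9 per array) were left out. Probes above the blank mean by 2 SD on at least 3 arrays, 20540 in number, were fitted with limma (lmFit and eBayes, two-sided, Benjamini-Hochberg over all, threshold 0.05); with 3 arrays a group, the smallest p of an exact permutation test is 0.1. The number of arrays limits the precision. The scripts were tested on simulated data first.

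For the 3 replicate numbers, the control and the Cre array deviated from their group means together (r = 0.498, 0.425 and 0.436 across probes, which are not independent), and the numbers were treated as pairs; this pairing comes from the shared numbers and this correlation, since the labels name no shared litter, culture or day. Named genes were standard proliferation genes, the 4 members with the smallest p in each direction, the member with the largest span between replicate numbers and the Cks paralogues; from other lists, up to 2 genes per direction with the smallest p. Cenpa, Col3a1 and Fzr1 were named after their values were seen, and the gene with the smallest p of the other mitosis list is not reported here. A gene was represented by its brightest probe; 20690 of 23473 probes had 1 symbol and 2783 none here. Alternatives were the background correction, the scaling, the authors' table, the filter, the variance model, the replicate block and leaving out each array.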

Additional observations from a re-analysis of the deposited data

How the results depend on the processing

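These are differences of means of 3 arrays, and their number limits what can be seen; dim probes such as Incenp lie close to background. No alternative, the replicate block included, brought a member or any other probe past the adjusted threshold for the virus. Of the 38 member genes, 7 kept their sign under all alternatives run (Cdc25c, Cks2, Ube2c, Incenp, Tpx2, Kif23 and Smc4) and 31 changed it under at least 1; the cause was not tested. The replicate block raised the members at an unadjusted p under 0.05 from 1 to 6, and the share of all probes from 5.61% to 9.34%. The local background column gave 2 members at that p (6.27% of all probes) and 3 genes without overlap. It gave 1 gene in the F test over replicate number (2.82% of all probes) and replicate 1 lowest for 12 (31.3%). Members at an unadjusted p in that F test were 13 with plain subtraction (12.4% of all probes), 8 and 7 in the authors' table with a pseudocount of 10 and 1 (10.9% and 11.1%), 8 with median scaling (5.94%) and 2 between replicates 2 and 3 alone (10.2%); these counts, those of replicate 1 lowest and the blocked intervals were added after the data were seen. Probes past the adjusted F threshold were 36 with median scaling, 17 with probes above background on all 6 arrays and 1193 with trend and robust moderation. Genes above 0 were 8 and 10 in the authors' table (pseudocount 10 and 1) and 16 with median scaling, and genes without overlap 2 in both forms of the table. In that table the median of all probes was -0.10 (pseudocount 10) and -0.16 (pseudocount 1). With 1 array left out, the genes above 0 ranged from 7 to 33. Members at an unadjusted p under 0.05 ranged from 1 to 3, against 4.14 to 6.71% of all probes. Members without overlap ranged from 2 to 5, in smaller groups, which fail to overlap more readily. The share of all probes without overlap was counted for the main fit alone (10.5%), so under the alternatives these counts have no share to be read against.

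With the local background column the difference turned sign to -1.03 for Cdk1, -0.070 for Cdc25b, 0.25 for Cks1b, -0.10 for Ttk, -0.072 for Nek2, 0.043 for Pttg1, -0.058 for Birc5, -0.17 for Cenpe, 0.38 for Cenpf, -0.18 for Hmmr, 0.25 for Mki67. In the authors' table with a pseudocount of 10 it read -0.15 for Cdk1, -0.10 for Aurka, -0.14 for Aurkb, -0.038 for Bub1, -0.056 for Ttk, -0.001 for Nek2, -0.034 for Bub1b, -0.16 for Mad2l1, -0.013 for Cdc20, -0.065 for Cenpa, -0.094 for Cenpe, -0.001 for Nusap1, -0.12 for Hmmr, -0.12 for Kif20a, -0.13 for Racgap1, -0.063 for Ect2, -0.15 for Top2a. With a pseudocount of 1 there it read -0.16 for Cdk1, -0.11 for Aurka, -0.14 for Aurkb, -0.037 for Bub1, -0.068 for Ttk, -0.038 for Bub1b, -0.17 for Mad2l1, -0.013 for Cdc20, -0.066 for Cenpa, -0.12 for Cenpe, -0.12 for Hmmr, -0.13 for Kif20a, -0.15 for Racgap1, -0.059 for Ect2, -0.15 for Top2a. With median scaling it read -0.043 for Cdk1, -0.004 for Aurka, -0.024 for Aurkb, -0.052 for Mad2l1, -0.017 for Cenpe, -0.009 for Hmmr, -0.029 for Kif20a, -0.026 for Racgap1, -0.046 for Top2a. With 1 array left out, sign changes gave ranges of -0.15 to 0.23 for Cdk1, -0.19 to 0.25 for Ccna2, -0.23 to 0.13 for Ccnb2, -0.004 to 0.17 for Cdc25b, -0.090 to 0.034 for Cks1b, -0.006 to 0.20 for Plk1, -0.12 to 0.20 for Aurka, -0.17 to 0.20 for Aurkb, -0.10 to 0.16 for Bub1, -0.071 to 0.14 for Ttk, -0.089 to 0.34 for Nek2, -0.030 to 0.20 for Bub1b, -0.13 to 0.15 for Mad2l1, -0.004 to 0.39 for Cdc20, -0.069 to 0.005 for Pttg1, -0.11 to 0.34 for Cenpa, -0.076 to 0.23 for Cenpe, -0.18 to 0.024 for Cenpf, -0.16 to 0.078 for Kif11, -0.20 to 0.12 for Kif4, -0.12 to 0.43 for Nusap1, -0.10 to 0.30 for Hmmr, -0.18 to 0.20 for Kif20a, -0.18 to 0.15 for Racgap1, -0.14 to 0.25 for Ect2, -0.26 to 0.10 for Anln, -0.11 to 0.21 for Top2a, -0.15 to 0.16 for Mki67, -0.15 to 0.092 for Smc2, -0.22 to 0.22 for Ncapd2.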
